A study of Naumovozyma castellii with 24 samples.

Results

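CTR1, CTR3, ISU1 and LSO1 are 4 of the 5648 genes counted in the yeast Naumovozyma castellii, and they were followed through all 10 groups of the study. They were chosen by symbol, and each symbol was matched to its locus through the RefSeq annotation table of assembly ASM23734v1. In that table CTR1 is NCAS0A11640, CTR3 is NCAS0J01670, ISU1 is NCAS0C01540 and LSO1 is NCAS0D01970, on 4 different chromosomes. All 4 passed the filter on low counts in both experiments. The choice was made with results in view, because the falls of CTR3, CTR1 and ISU1 at low oxygen were already known. The low-oxygen values of these genes are therefore given as a description, with no test.

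In Saccharomyces cerevisiae, a relative of this yeast, Ctr1 and Ctr3 are high-affinity copper transporters of the plasma membrane, and the copper-sensing activator Mac1 switches on both genes when copper is scarce. Isu1 is a scaffold protein of the mitochondrial matrix on which iron-sulfur clusters are built before they are handed to enzymes such as aconitase. Copper and iron supply are linked there, since the iron uptake oxidase Fet3 needs copper. Lso1 of S. cerevisiae is a small protein whose gene is known for its activation when iron is scarce. In N. castellii the table gives coding lengths of 1206 bp for CTR1, 789 bp for CTR3, 486 bp for ISU1 and 288 bp for LSO1, and the LSO1 product has 95 residues.

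The study asked how the Rox regulators control the response of this yeast to low oxygen. All cells were of strain background DBP004 in YPD medium at 30 °C. In the deletion experiment, rox1/rox2-/-, rox2-/-, rox1-/- and WT cells reached an A600 of 1 and were grown for a further 2 h with or without 0.6 mM CoCl2, a salt often used to mimic low oxygen. It had 2 libraries per group, except for untreated rox2-/- and untreated WT with 3 each. The oxygen experiment held 3 libraries of WT cells kept at 1% oxygen for 6 h (hypoxia) and 3 kept at 21% oxygen (normoxia). The deletion strains are written rox1, rox2 and rox1/rox2 below. The labels call the replicates biological and give no further origin, so p-values measure the spread between these samples. Comparisons with WT share the WT libraries.

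Gene counts per library ranged between 5585196 and 12738873 in the deletion experiment and between 11993105 and 12181501 in the oxygen experiment. ROX1 had 0 or 1 counts in the 8 libraries of strains lacking it and 107 to 392 counts in the other 10 libraries of that experiment. The locus deleted as ROX2 has no symbol in the table, so the rox2 labels were not checked in this way. The rox2 strain had 2 libraries that stood apart in the share of reads outside genes, CoCl2-treated rox2 replicate 1 with 19.88% and untreated rox2 replicate 3 with 14.47%, against at most 10.13% in the other deletion libraries. Replicates of the CoCl2-treated groups of rox2, rox1/rox2 and WT differed at least 2-fold in 9.91%, 8.01% and 7.99% of 4842 genes, against at most 0.434% between untreated WT replicates. The share was up to 4.63% between untreated rox2 replicates and 3.18% between untreated rox1 replicates. In CoCl2-treated rox1 it was 2.85%.

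CTR1 rose with CoCl2 in WT cells and in no deletion strain did its change pass the test. Its levels in CPM, the gene count scaled to library size with TMM factors, were 268.3 and 232.9 in CoCl2-treated WT cells, against 48.5, 68.7 and 63.6 in untreated WT cells. The groups lay far apart, with the lowest treated library above the highest untreated one, as for 38.5% of all genes. CTR1 rose 4.16-fold with CoCl2 in WT (log2 2.06, SE 0.388, edgeR adjusted p = 0.00079). In rox1 cells the levels were 81.0 and 49.5 CPM with CoCl2, against 142.4 and 73.4 CPM without it, so that the groups overlapped (log2 −0.72, SE 0.432, edgeR adjusted p = 0.341). In rox2 cells they were 204.7 and 153.9 CPM with CoCl2, against 72.8, 229.8 and 175.9 CPM without it, again overlapping (log2 0.17, SE 0.388, adjusted p = 0.737). In rox1/rox2 cells CTR1 had 154.8 and 123.5 CPM with CoCl2, against 120.8 and 93.9 CPM without it, with a narrow gap between the groups (log2 0.37, SE 0.429, adjusted p = 0.606). The culture RNA gives a mean over all cells, and fewer cells of a kind and less RNA per cell cannot be told apart in it.

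The CoCl2 response of CTR1 differed between rox1 and WT. The difference of the log2 responses, rox1 minus WT, was −2.78 (SE 0.584, edgeR adjusted p = 0.026), and 4.71% of 5544 genes passed that test. The call was lost without WT replicate 1 or 2, without CoCl2-treated WT replicate 1, without rox1 replicate 1, and without CoCl2-treated rox1 replicate 2. The difference was then −2.63, −2.88, −2.67, −2.20 and −2.47, with adjusted p-values of 0.0856, 0.0724, 0.0683, 0.118 and 0.151. For rox2 minus WT it was −1.89 (SE 0.556, adjusted p = 0.173) and for rox1/rox2 minus WT −1.68 (SE 0.579, adjusted p = 0.19), where 0.0902% and 0.397% of all genes passed. DESeq2 called the rox2 value (adjusted p = 0.0473) and not the rox1/rox2 value.

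Within CoCl2, CTR1 was lower in rox1 than in WT. The 2 rox1 libraries had 81.0 and 49.5 CPM and the 2 WT libraries 268.3 and 232.9 CPM, a fold of 0.26 (log2 −1.94, SE 0.442, edgeR adjusted p = 0.0106). Of the 4 genes, 1 was called in this comparison, as were 17.6% of all genes. The call was lost without CoCl2-treated WT replicate 1 (log2 −1.84, adjusted p = 0.0618) and without CoCl2-treated rox1 replicate 2 (log2 −1.63, adjusted p = 0.145). The other strains in CoCl2 averaged 179.3 ± 35.9 CPM in rox2 and 139.2 ± 22.1 CPM in rox1/rox2, against 250.6 ± 25 CPM in WT (SD, n = 2 each). Against WT these were log2 −0.48 in rox2 (SE 0.427, adjusted p = 0.54) and −0.85 in rox1/rox2 (SE 0.429, adjusted p = 0.316).

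**Figure D1:**
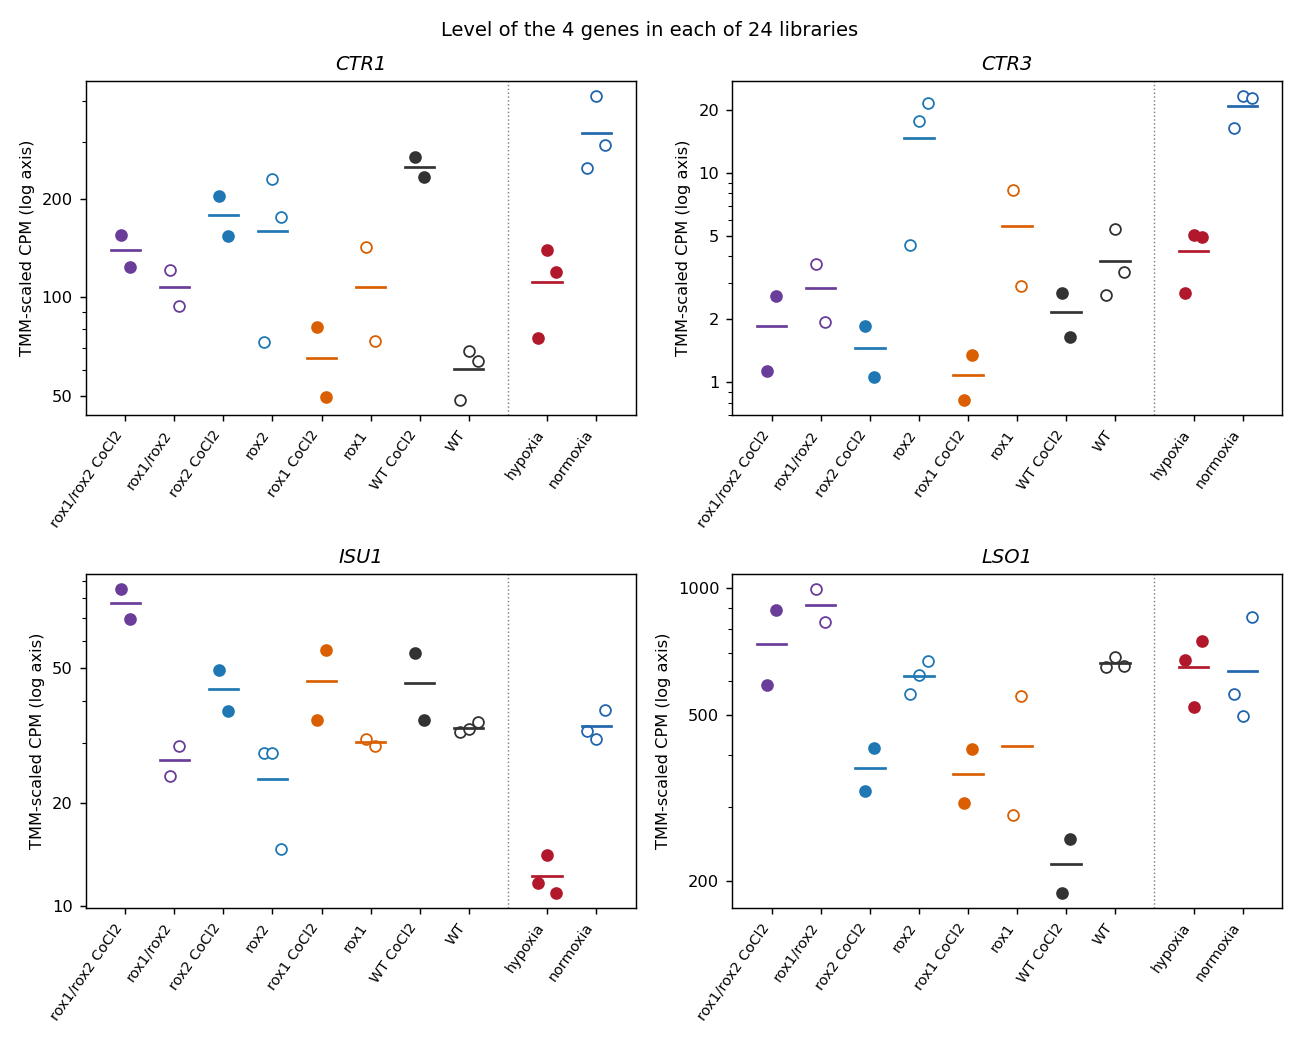
TMM-scaled CPM of each gene (log axis) in every library, by group. Each point is a library, filled for CoCl2-treated or hypoxic cells and open for untreated or normoxic cells, and each bar is the group mean. CTR1 is highest in CoCl2-treated WT cells among the deletion groups, and the 3 hypoxic libraries lie below the 3 normoxic ones for CTR1, CTR3 and ISU1.

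CTR3, the second copper transporter gene, was low throughout the deletion experiment and fell with CoCl2 in rox2 cells. Its levels there were 1.87 and 1.06 CPM with CoCl2, from 12 counts in each library, against 4.56, 17.9 and 21.7 CPM without it, from 49, 157 and 121 counts. CTR3 fell to a fold of 0.0971 (log2 −3.36, SE 0.726, edgeR adjusted p = 0.00225). In rox1 cells it had 0.824 and 1.35 CPM with CoCl2, against 8.28 and 2.88 CPM without it (log2 −2.30, SE 0.777, edgeR adjusted p = 0.0837). DESeq2 called that difference (adjusted p = 0.0142), and so did edgeR without rox1 replicate 2 (log2 −2.94, adjusted p = 0.0284). In WT, CTR3 had 2.68 and 1.64 CPM with CoCl2, against 2.63, 5.41 and 3.38 CPM without it (log2 −0.78, SE 0.676, adjusted p = 0.353). In rox1/rox2 it had 1.14 and 2.58 CPM with CoCl2, against 3.70 and 1.94 CPM without it (log2 −0.68, SE 0.812, adjusted p = 0.621). The groups overlapped in both strains. All 8 CoCl2-treated libraries held only 8 to 30 CTR3 counts.

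The CoCl2 response of CTR3 was not shown to differ between strains. The difference from the WT response was log2 −2.59 in rox2 (SE 0.991, adjusted p = 0.274), −1.52 in rox1 (SE 1.04, adjusted p = 0.369) and 0.10 in rox1/rox2 (SE 1.07, adjusted p = 0.989). The last of these changed sign under 6 of its 16 alternatives.

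In CoCl2-treated WT cells the 2 copper transporter genes had opposite signs, log2 2.06 for CTR1 and −0.78 for CTR3, of which only that of CTR1 passed the test. Within groups their libraries often, but not always, had the same order. Untreated rox2 replicate 1 was the lowest of the 3 rox2 libraries for both genes, and untreated rox1 replicate 1 was the higher of the 2 rox1 libraries for both. The order was opposite in CoCl2-treated rox1, with CTR1 at 81.0 and 49.5 CPM and CTR3 at 0.824 and 1.35 CPM, in CoCl2-treated rox1/rox2, with CTR1 at 154.8 and 123.5 CPM and CTR3 at 1.14 and 2.58 CPM, and between untreated rox2 replicates 2 and 3. The deviations of log2 CPM from the group mean had a Pearson r of 0.733 between CTR1 and CTR3 over the 18 deletion libraries and 0.906 over the 6 oxygen libraries. Without centring on groups, r was 0.209 and 0.979. These values are descriptions, since the points share groups, library depth and scaling. For the other 5 pairs of the 4 genes, r of the deviations lay between −0.363 and −0.0212 in the deletion experiment and between −0.411 and 0.268 in the oxygen experiment.

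**Figure D2:**
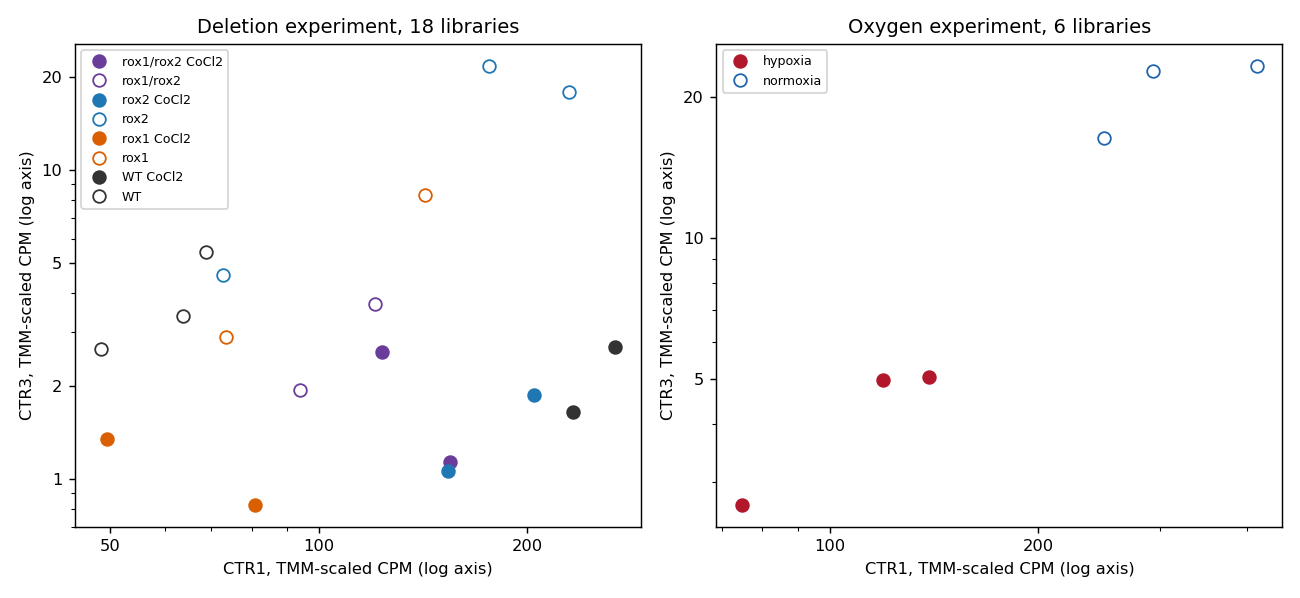
CTR3 against CTR1 in TMM-scaled CPM (both axes log), 1 point per library, for the deletion experiment on the left and the oxygen experiment on the right. On the left, the 2 CoCl2-treated WT libraries lie at high CTR1 and low CTR3; on the right, the hypoxic libraries are low and the normoxic libraries high for both genes.

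ISU1, a scaffold gene of iron-sulfur assembly, was higher with CoCl2 in all 4 strains, and 2 of the 4 differences passed the test. In rox1/rox2 it had 85.3 and 69.6 CPM with CoCl2, against 24.2 and 29.5 CPM without it. It rose 2.89-fold there (log2 1.53, SE 0.305, edgeR adjusted p = 0.0117). In rox2 it had 49.4 and 37.5 CPM with CoCl2, against 28.1, 28.1 and 14.7 CPM without it, a rise of 1.81-fold (log2 0.86, SE 0.272, edgeR adjusted p = 0.019). In rox1 it had 35.1 and 56.5 CPM with CoCl2, against 30.9 and 29.6 CPM without it (log2 0.60, SE 0.298, adjusted p = 0.244). In WT it had 55.3 and 35.2 CPM with CoCl2, against 32.5, 33.0 and 34.7 CPM without it (log2 0.44, SE 0.268, adjusted p = 0.186). The WT value was log2 0.07 without CoCl2-treated WT replicate 1. No treated library of a strain overlapped its untreated libraries. Of all genes, 32.4%, 31.2%, 26.9% and 38.5% were higher without overlap in rox1/rox2, rox2, rox1 and WT.

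Both ISU1 calls rested on particular libraries. Without rox1/rox2 replicate 1 or 2, or without CoCl2-treated rox1/rox2 replicate 1, the rise in rox1/rox2 was log2 1.39, 1.68 and 1.38, with adjusted p-values of 0.163, 0.0822 and 0.0833. In rox2 the lowest library, replicate 3 with 14.7 CPM, was one of the libraries with many reads outside genes. The rise in rox2 was log2 0.62 without it (adjusted p = 0.0548), 0.65 without CoCl2-treated rox2 replicate 1 (adjusted p = 0.162) and 0.41 without both (adjusted p = 0.276). With a length correction it was 0.53 (adjusted p = 0.175). The ISU1 response in the deletion strains minus that in WT was log2 1.09 in rox1/rox2 (SE 0.406, adjusted p = 0.223), 0.41 in rox2 (SE 0.385, adjusted p = 0.671) and 0.16 in rox1 (SE 0.402, adjusted p = 0.83). ISU2, a gene of the same scaffold family, had a log2 fold change of −0.41 with CoCl2 in WT (SE 0.212, adjusted p = 0.128). It was the more abundant of the 2, with a mean log2 CPM of 8.01 over the deletion libraries, against 5.31 for ISU1. Gene counts exclude reads with more than 1 match, and how many were lost to either ISU gene was not tested.

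LSO1, the small gene known for its response to iron shortage in S. cerevisiae, fell with CoCl2 in WT. Its levels were 187.8 and 252.7 CPM in CoCl2-treated WT cells, against 648.5, 685.3 and 652.3 CPM in untreated WT cells. LSO1 fell to a fold of 0.333 (log2 −1.59, SE 0.283, edgeR adjusted p = 0.000524). The same CoCl2-treated WT libraries enter the comparison of rox1/rox2 with WT in CoCl2, where LSO1 was among the 6 largest rises. Which comparison led to its choice is not recorded, so the p-values of LSO1 may not be independent of that choice. In rox2 LSO1 had 328.5 and 415.2 CPM with CoCl2, against 558.7, 619.7 and 672.8 CPM without it. It fell there to a fold of 0.603 (log2 −0.73, SE 0.273, edgeR adjusted p = 0.0397). In rox1 it had 308.2 and 412.7 CPM with CoCl2, against 288.4 and 552.8 CPM without it, with overlap (log2 −0.22, SE 0.293, adjusted p = 0.713). In rox1/rox2 it had 589.1 and 885.7 CPM with CoCl2, against 997.2 and 830.6 CPM without it, with overlap (log2 −0.31, SE 0.292, adjusted p = 0.531).

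The rox2 fall of LSO1 was lost without untreated rox2 replicate 1, 2 or 3 (log2 −0.78, −0.71 and −0.67, adjusted p = 0.0535, 0.0698 and 0.0681). It was also lost without CoCl2-treated rox2 replicate 1 (log2 −0.57, adjusted p = 0.238), and without that library and rox2 replicate 3 together (log2 −0.51, adjusted p = 0.31). The LSO1 response in the deletion strains minus that in WT was log2 1.37 in rox1 (SE 0.4, adjusted p = 0.0642), 1.28 in rox1/rox2 (SE 0.4) and 0.86 in rox2 (SE 0.378, adjusted p = 0.335). No test is read for the rox1/rox2 value, because it contains the difference of rox1/rox2 from WT in CoCl2, where LSO1 was among the 6 largest rises. The rox1 value was past the threshold with DESeq2 (adjusted p = 0.0107), without rox1 replicate 2 (1.91, adjusted p = 0.0108) and without CoCl2-treated rox1 replicate 1 (1.56, adjusted p = 0.0491).

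Among CoCl2-treated cells, the mean LSO1 level of each deletion strain was above that of the same WT libraries. The rox2 and rox1 differences did not pass the test, and no test is read for rox1/rox2. LSO1 averaged 737.4 ± 210 CPM in rox1/rox2, 371.8 ± 61.3 CPM in rox2 and 360.4 ± 73.9 CPM in rox1, against 220.2 ± 45.9 CPM in WT (SD, n = 2 each). The rox2 and rox1 differences were log2 0.76 (SE 0.294, edgeR adjusted p = 0.147) and 0.71 (SE 0.294, adjusted p = 0.107), and with a length correction the rox2 value turned to −0.15. The rox1/rox2 difference, log2 1.74 (SE 0.301, 3.35-fold), put LSO1 among the 6 largest rises of that comparison. Which comparison led to the choice of LSO1 is not recorded, so no test is read for that value. In that comparison 5.01% of all genes were called, and CTR1, CTR3 and ISU1 had adjusted p-values of 0.316, 0.887 and 0.166. In the comparison of rox2 with WT in CoCl2, edgeR called none of the 4 and 3.57% of all genes. At an unadjusted p under 0.05 it was 1 of the 4 (LSO1) and 22.8% of all genes. DESeq2 called 0 of the 4 and 582 genes in all, against 198 with edgeR.

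Counted over the 4 genes, CoCl2 in WT gave 1 rise (CTR1) and 1 fall (LSO1), where 47% of 5544 genes were called. In rox2 it gave 1 rise (ISU1) and 2 falls (CTR3 and LSO1), with 48.1% of all genes called. In rox1/rox2 it gave 1 rise (ISU1), with 5.79% called. In rox1 edgeR called 0 of the 4 genes and 8.06% of all genes, with 1 of the 4 (CTR3) at an unadjusted p under 0.05, as were 23.6% of all genes. DESeq2 called 1 of the 4 there and 730 genes in all, against 447 with edgeR. The share in WT, 2 of 4, is near that of all genes and is no result about these 4.

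**Figure D3:**
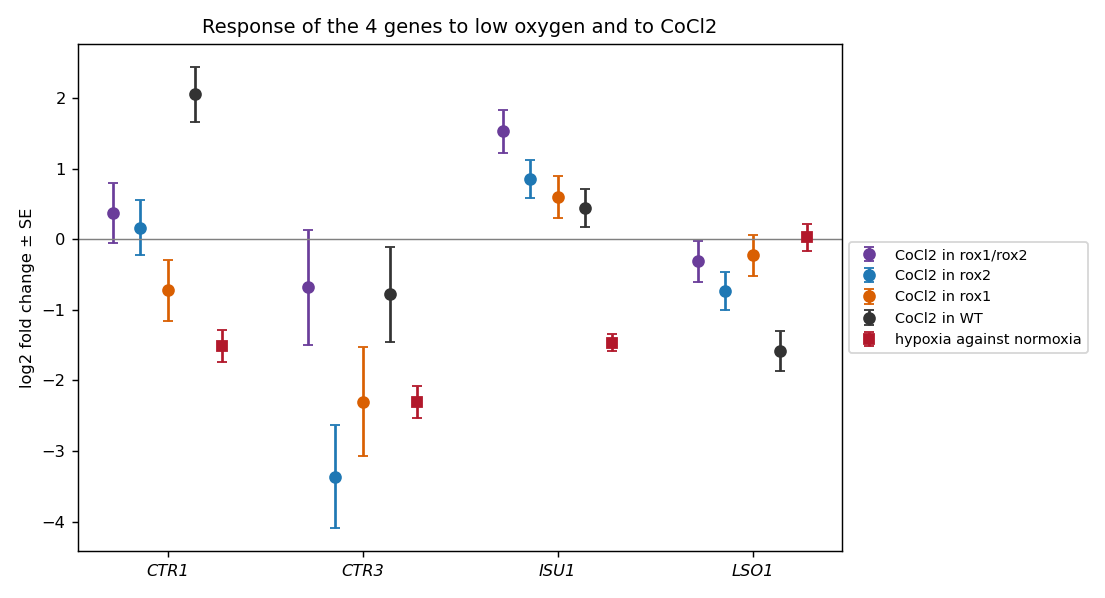
Log2 fold change of each gene with its SE, for CoCl2 against no CoCl2 in each strain (circles) and for hypoxia against normoxia in WT (squares). CTR1 has a response of 2.06 to CoCl2 in WT and values between −0.72 and 0.37 in the deletion strains, and ISU1 lies above 0 in all 4 strains and at −1.47 in hypoxia.

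Without CoCl2, edgeR called none of the 4 genes in any deletion strain. It called 0.108% of all genes in rox1/rox2, 0.0722% in rox2 and 0.0541% in rox1, each against WT. At an unadjusted p under 0.05 there were 1, 2 and 2 of the 4 genes, and 16.9%, 7.32% and 8.37% of all genes. DESeq2 called 0 of the 4 in rox1/rox2, 2 in rox2 and 0 in rox1, and 166, 65 and 45 genes in all, against 6, 4 and 3 with edgeR. The 2 were the copper transporter genes, CTR1 with a log2 difference of 1.40 (SE 0.357, edgeR adjusted p = 0.188, DESeq2 adjusted p = 0.0186) and CTR3 with 1.92 (SE 0.537, edgeR adjusted p = 0.261, DESeq2 adjusted p = 0.0473). CTR1 averaged 159.5 ± 79.8 CPM in rox2 and 60.3 ± 10.5 CPM in WT (SD, n = 3 each). The lowest rox2 library, with 72.8 CPM, lay near the highest WT library, with 68.7 CPM. CTR3 averaged 14.7 ± 9.01 CPM in rox2 and 3.81 ± 1.44 CPM in WT, and rox2 replicate 1 lay within the WT range. In rox1/rox2 and rox1, CTR1 averaged 107.3 ± 19 and 107.9 ± 48.8 CPM (SD, n = 2 each), log2 0.83 (SE 0.388, adjusted p = 0.295) and 0.84 (SE 0.387, adjusted p = 0.588) against WT. ISU1 was lower than WT in each strain, by log2 −0.32, −0.48 and −0.14 in rox1/rox2, rox2 and rox1, with adjusted p-values of 0.545, 0.76 and 0.943. LSO1 had log2 differences of 0.47, −0.10 and −0.65 in the same strains, with adjusted p-values of 0.359, 0.971 and 0.533. The last was called without rox1 replicate 2 (log2 −1.17, adjusted p = 0.0324), which left rox1 replicate 1, the library with 288.4 CPM.

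At 1% oxygen both copper transporter genes and ISU1 were lower, and the LSO1 groups overlapped. CTR3 had 2.69, 5.05 and 4.97 CPM in hypoxia, against 16.4, 23.3 and 22.8 CPM in normoxia. Its fold was 0.203 (log2 −2.30, SE 0.226), the third largest fall of 5559 genes. CTR1 had 74.8, 139.1 and 119.6 CPM in hypoxia, against 248.5, 413.0 and 293.0 CPM in normoxia. Its fold was 0.349 (log2 −1.52, SE 0.226), at place 13 among the falls.

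ISU1 had 11.6, 14.1 and 10.9 CPM in hypoxia, against 32.8, 31.0 and 37.5 CPM in normoxia. Its fold was 0.362 (log2 −1.47, SE 0.122), at place 15 among the falls. Every hypoxic library lay below every normoxic one for these 3 genes, as for 13.8% of all genes, and 6.49% of all genes were called, with 3.85% lower. Nothing is read from the count of 3, because these falls led to the choice. LSO1 had 675.9, 520.5 and 748.0 CPM in hypoxia, against 559.0, 494.7 and 852.3 CPM in normoxia, with full overlap (log2 0.03, SE 0.19).

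The 2 treatments gave CTR1 opposite signs in WT cells, and ISU1 had opposite signs with an uncalled CoCl2 value. CTR1 was at log2 2.06 with CoCl2 and −1.52 in hypoxia, and ISU1 at 0.44 and −1.47. The CoCl2 value of ISU1 did not pass the test (edgeR adjusted p = 0.186). It was 0.07 without CoCl2-treated WT replicate 1. The hypoxic falls of CTR1, CTR3 and ISU1 led to their choice. CTR3, also uncalled with CoCl2, was at −0.78 and −2.30, and LSO1 at −1.59 and 0.03. The 2 experiments differed in read length, library maker and growth, so their difference was not tested.

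Per kilobase of coding length, LSO1 was the most abundant of the 4 genes in the untreated WT cells of the deletion experiment, at 2299 CPM per kb, rank 84 of 5488 genes with a length. ISU1 stood at 68.7 CPM per kb, CTR1 at 50.0 and CTR3 at 4.82 CPM per kb, with 5.41% of genes lower than CTR3. In CoCl2-treated WT cells CTR1 reached 207.8 CPM per kb and passed ISU1 at 93.0 CPM per kb, with LSO1 at 764.7 and CTR3 at 2.74 CPM per kb. In hypoxia the levels were 2250 CPM per kb for LSO1, 92.2 for CTR1, 25.1 for ISU1 and 5.37 for CTR3. In normoxia they were 2206 CPM per kb for LSO1, 263.8 for CTR1, 69.5 for ISU1 and 26.4 for CTR3. The 2 experiments were scaled apart, so levels are not compared between them.

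The 8 deletion groups were put in order of their means, as a description. How many of all genes separate between neighbouring groups in such an order was not counted. CTR1 was highest in CoCl2-treated WT, whose libraries did not overlap those of the next group, CoCl2-treated rox2 (log2 −0.48 for rox2 against WT, edgeR adjusted p = 0.54). It then ran down through rox2, CoCl2-treated rox1/rox2, rox1 and rox1/rox2, in which each group overlapped the next. CoCl2-treated rox1 and WT were lowest and overlapped each other. CTR3 was highest in rox2, then in rox1, WT, rox1/rox2 and the 4 treated groups, and every neighbour in that order overlapped the next. ISU1 was highest in CoCl2-treated rox1/rox2, at 77.5 ± 11.1 CPM (SD, n = 2), without overlap with the other treated groups, which overlapped each other at means of 43.4 to 45.8 CPM. Below these came WT, rox1, rox1/rox2 and rox2, of which only the last 2 overlapped. The lowest rox1 library, with 29.56 CPM, lay barely above the highest rox1/rox2 library, with 29.52 CPM. LSO1 was highest in rox1/rox2, at 913.9 ± 118 CPM (SD, n = 2). CoCl2-treated rox1/rox2, WT and rox2 followed, each overlapping the next. Then came rox1, CoCl2-treated rox2 and CoCl2-treated rox1, also overlapping. CoCl2-treated WT was lowest, without overlap with CoCl2-treated rox1, though that difference did not pass the test (log2 0.71 for rox1 against WT, edgeR adjusted p = 0.107).

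The genes whose log2 CPM followed each of the 4 most closely over the 18 deletion libraries were picked from 4842 genes by Pearson r. They were CIN10, CSC1 and NCAS0G00340 for CTR1 (r of 0.857, 0.851 and 0.85) and FUN26, TOK1 and NCAS0H01430 for CTR3 (0.818, 0.818 and 0.8). For ISU1 they were NCAS0E02360, VAM3 and PRB1 (0.882, 0.872 and 0.855), and for LSO1 ERV46, LAA2 and OPI1 (0.887, 0.864 and 0.845). In the 6 oxygen libraries the closest of 5014 genes was LYS12 for CTR1 (0.995), ERG26 for CTR3 (0.998), PET9 for ISU1 (0.997) and BET2 for LSO1 (0.992). The libraries share groups, so these values describe the pattern only.

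The genes next to the 4 on their chromosomes were followed with CoCl2 and in hypoxia. Over all genes, 5.79%, 48.1%, 8.06% and 47% were called with CoCl2 in rox1/rox2, rox2, rox1 and WT, and 6.49% in hypoxia. CTR3 lies beside FAS1, a fatty acid synthase gene, which rose with CoCl2 in each strain. The FAS1 rise was log2 0.94 in rox1/rox2, 0.78 in rox2, 1.18 in rox1 and 1.24 in WT (edgeR adjusted p = 0.0235, 0.00572, 0.00494 and 0.000229). CTR3 itself was lower on average in each strain, and only its rox2 fall passed the test. FAS1 also rose in hypoxia (log2 0.44, adjusted p = 0.00161). VIP1, on the other side of CTR3, had edgeR adjusted p-values of 0.163 or more in these 5 comparisons. SPT6, beside CTR1, fell with CoCl2 in rox2 (log2 −0.87, adjusted p = 0.00464), and AXL1, on its other side, fell with CoCl2 in rox1/rox2 (log2 −0.51, adjusted p = 0.0308). The neighbours of ISU1 (RDS2 and GIP3) and of LSO1 (PET130 and POL31) had adjusted p-values of 0.0652 or more in these 5 comparisons.

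To set the 4 genes among others of their pathways, 5 lists of copper, iron and iron-sulfur genes were counted, with 94 of 123 listed names found in the table and tested. The lists were chosen with earlier results of these data known, so the counts and p-values of list genes are context and no independent evidence. With CoCl2 in WT, 24 rose and 12 fell, where 27.7% and 19.4% of all genes rose and fell. Without CoCl2-treated WT replicate 1, 15 rose and 6 fell. With total counts in place of TMM scaling, which moved the median of all genes by log2 0.243, 34 list genes rose and 5 fell. Over all genes the split was then 1872 rises and 623 falls, against 1533 and 1074. In the copper list, 6 of 14 rose, with a median log2 fold change of 0.534, against 0.00201 over all genes. They included PIC2, a mitochondrial carrier for copper and phosphate (27.8-fold), CUP2, the copper-sensing activator of metallothionein genes (2.47-fold), and COX17, a copper chaperone of cytochrome oxidase (1.88-fold). MAC1, whose product activates CTR1 and CTR3 in S. cerevisiae, had a log2 fold change of −0.36 (SE 0.153, edgeR adjusted p = 0.0706).

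In the iron list, 3 of 18 rose and 4 fell with CoCl2 in WT (median −0.0575). HMX1, the haem oxygenase gene, rose 55.2-fold, the glutaredoxin gene GRX4 2.12-fold and the iron regulator gene AFT2 1.35-fold. Besides LSO1, the 3 that fell were BOL2 (fold 0.545), which acts with the glutaredoxins in iron sensing, the mitochondrial iron carrier gene MRS4 (0.545) and CTH1 (0.636), which encodes an mRNA-binding protein. AFT1 and FET3, an iron regulator and the iron uptake oxidase, had log2 fold changes of −0.36 and −0.31 (adjusted p = 0.268 and 0.243).

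In the list of iron-sulfur cluster assembly, 5 of 30 rose and 6 fell (median −0.188). The rises included ISA2 (5.28-fold), CIA2 (2.19-fold), the frataxin gene YFH1 (1.66-fold) and NFU1 (1.38-fold). The falls included CFD1 (fold 0.568), the cysteine desulfurase gene NFS1 (0.665), TAH18 (0.674) and ERV1 (0.677). With total counts 8 assembly genes rose, and the 6 falls lost their calls, CFD1, NFS1, TAH18 and ERV1 with edgeR adjusted p-values of 0.0671, 0.235, 0.132 and 0.138. Of the iron-sulfur enzymes, 7 of 16 rose and 1 fell (median 0.362). RIP1, the Rieske protein of the respiratory chain, rose 5.03-fold, LEU1 of leucine synthesis 3.78-fold, MET5 of sulfite reduction 3.4-fold and the aconitase gene ACO1 2.74-fold, and DPH1 fell to a fold of 0.52. Of the other metal transporters, 3 of 16 rose and 1 fell (median 0.0887). These were the vacuolar zinc transporter genes ZRC1 (2.96-fold) and ZRT3 (1.54-fold), ZRG17 (1.31-fold) and YKE4 (fold 0.513).

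Several of these calls in CoCl2-treated WT rested on single libraries. Without CoCl2-treated WT replicate 1, COX17, AFT2, MRS4, CTH1, YFH1, NFU1, NFS1, TAH18, ERV1, MET5, DPH1, ZRT3 and ZRG17 lost their calls, with adjusted p-values from 0.0636 to 0.358, and the rise of MET5 shrank to log2 0.82. Without CoCl2-treated WT replicate 2, LEU1, CFD1, NFS1, TAH18, AFT2 and ZRG17 did, with adjusted p-values from 0.0536 to 0.182, and the rise of LEU1 shrank to log2 0.83. Without WT replicate 1, 2 or 3, one or more of AFT2, CTH1, DPH1, NFS1, NFU1, YFH1 and ZRG17 did, with adjusted p-values from 0.0511 to 0.135.

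In hypoxia, in the fit without pairing, 2 of the 94 list genes rose and 11 fell. Of these falls, 3 were CTR1, CTR3 and ISU1, which were chosen for falling, so that part of the count was known beforehand. They are also among the 94 genes counted with the block. Over all genes 2.64% rose and 3.85% fell. With the replicate number as a block, which paired these samples, 4 list genes rose and 23 fell. The block also raised the calls over all 5559 genes to 741, with 302 rises and 439 falls, against 361 without it. Of the other 12 copper genes, 2 fell, the superoxide dismutase gene SOD1 (fold 0.43, edgeR adjusted p = 4.33e-06) and COX17 (fold 0.561, adjusted p = 0.000459). MAC1 had a log2 fold change of −0.06 (adjusted p = 0.721). With the block, 7 copper genes fell, CTR1 and CTR3 among the 14 counted.

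In the iron list, FTR1, the iron permease gene, rose 1.36-fold and FET4, a low-affinity iron transporter gene, 1.27-fold in hypoxia. HMX1 fell to a fold of 0.0594 (edgeR adjusted p = 3.97e-06), in a list chosen with earlier results known. With the block, 4 iron genes rose and 2 fell. Of the other 29 assembly genes, 3 fell, namely BOL1 (fold 0.733), NFU1 (0.761) and IBA57 (0.831), and of the 30 with ISU1, 11 fell with the block and 7 with DESeq2. ISU2 had a log2 fold change of −0.22 (SE 0.0657, adjusted p = 0.0837), against −1.47 for ISU1. Its mean log2 CPM over the oxygen libraries was 7.56, against 4.53 for ISU1. Of the iron-sulfur enzymes 1 of 16 fell, RIP1 (0.698), and of the other metal transporters 1 of 16, YCF1 (0.863). The calls of FET4, BOL1, NFU1, IBA57, RIP1 and YCF1 were each lost when 1 or more of the 6 libraries was left out in turn, with adjusted p-values from 0.0589 to 0.191. Without normoxia replicate 1 or hypoxia replicate 1 or 3, 7, 6 and 7 of the 94 genes fell, and without normoxia replicate 1 or hypoxia replicate 2 or 3, 1 rose.

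**Figure D4:**
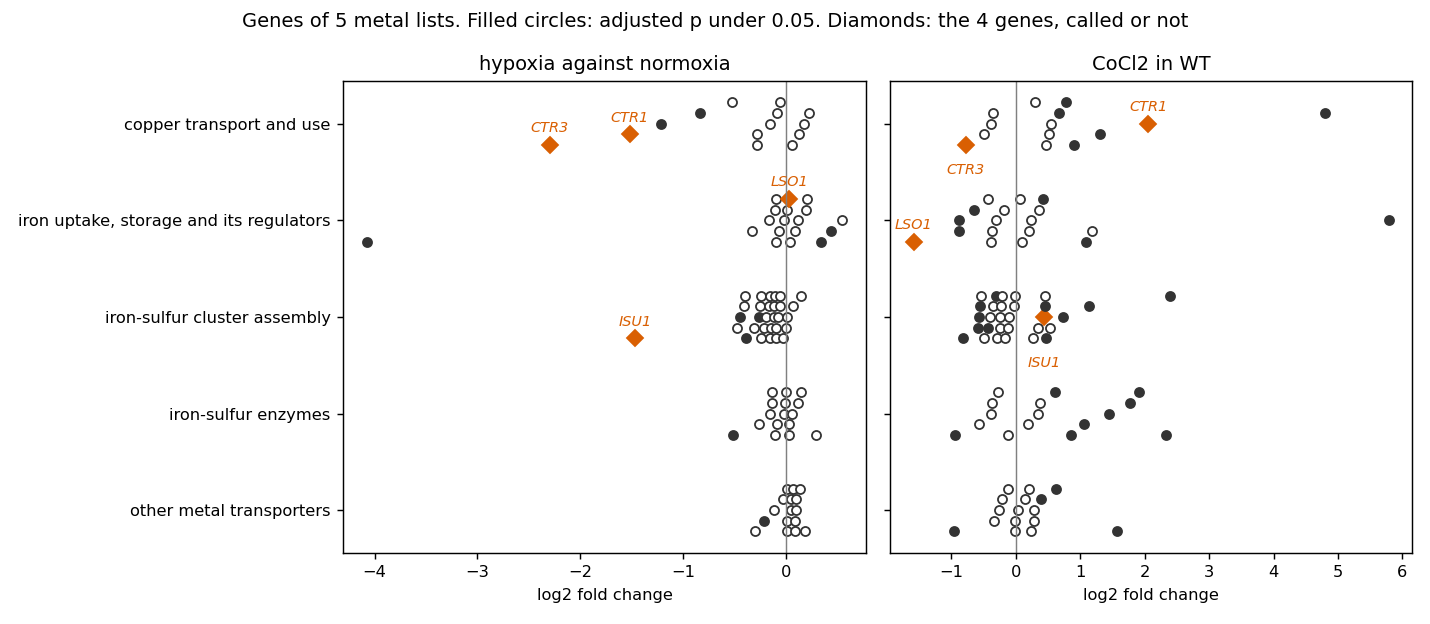
Log2 fold change of the 94 list genes in hypoxia against normoxia (left) and with CoCl2 in WT (right), 1 row per list. Filled circles passed an adjusted p of 0.05, open circles did not, and diamonds mark the 4 genes whether or not they passed. CTR3, CTR1 and ISU1 lie left of nearly all list genes in hypoxia, where HMX1 lies further left, and CTR1 lies among the rises with CoCl2.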

How the data were processed

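RNA from N. castellii cultures was sequenced in 24 libraries, and the deposited values are raw read counts. Per the submitters' processing notes, the authors used TopHat2 for alignment and HTSeq 0.6.0 for counting. The genome build, annotation, strand setting and TopHat2 version are not given in the sources used here. The labels describe the deletion libraries as stranded single-end reads of 42 bp and the oxygen libraries as stranded paired-end reads of 90 bp from another maker, and do not say which of the named RNA kits served which sample. Each experiment was fitted on its own.

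Deposited counts of the deletion experiment came as 5852 exon entries and were summed to 5648 genes, while the oxygen experiment had 1 entry per gene. The annotation table held 5589 of these genes, 4484 with a symbol. Reads outside genes and reads with several matches were kept out of library sizes and tests. Reads with several matches were 17.27 to 42.84 per 100 gene counts in deletion libraries and 0 in oxygen libraries.

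TMM scaling was used, and filterByExpr (minimum 10 counts) kept 5544 genes for the deletion libraries and 5559 for the oxygen libraries. The 14 comparisons were tested two-sided with edgeR 4.0.16 (glmQLFit and glmQLFTest) in R 4.3.3. P-values were adjusted by Benjamini-Hochberg across every tested gene, with 0.05 as the threshold. All 18 deletion libraries entered 1 fit with a mean per group, and the 6 oxygen libraries another. The method was tested on simulated data. Alternatives were RLE size factors, total counts, no filter, a correction on coding length, the replicate number as a block, DESeq2 1.42.0, a fit of only the groups compared, and leaving out each library in turn. Where 1 library was left in a group, it was assumed to vary like the other groups.

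The 4 genes and the 5 lists were chosen with earlier results of these data known. The lists use S. cerevisiae gene names. From them the called genes are named, up to 4 per list and direction by size of change, and MAC1, ISU2, AFT1 and FET3 were named outside this rule for their known roles. Genes of like pattern are the 3 with the highest r among genes with a mean log2 CPM of 4 or more. For LSO1 no test is read where it is among the 6 largest rises or falls. In the oxygen experiment, hypoxic and normoxic libraries of the same replicate number deviated together from their group means, with correlations across genes of 0.152, 0.307 and 0.137. All exceed 0.1, so the numbers were taken to pair the samples. The printed hypoxia SEs and edgeR adjusted p-values nevertheless come from the fit without pairing, and the block served as an alternative. With it 741 genes were called, against 361 without it.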

Additional observations from a re-analysis of the deposited data

Results flagged for a closer look

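The CoCl2 response of CTR1 differed between 2 strains by a test of the difference itself. The log2 response was −0.72 in rox1 and 2.06 in WT, a difference of −2.78 (SE 0.584, edgeR adjusted p = 0.026). CTR1 was lower with CoCl2 in rox1 on average and higher in both treated WT libraries than in all 3 untreated ones. Untreated rox1 replicate 1 had 142.4 CPM and replicate 2 had 73.4 CPM, and without replicate 1 the difference was −2.20 (adjusted p = 0.118). Over the alternatives it ranged between −3.18 and −2.20, with adjusted p-values between 0.000307 and 0.151. The part of single libraries in it beyond these values was not tested.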

How the results depend on the processing

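Over 51 tested log2 values of the 4 genes and 669 alternatives, 606 kept direction and side of the threshold, 23 lost the call, 15 gained one and 25 changed sign. These counts include the LSO1 response of rox1/rox2 minus WT, of which no test is read. The CoCl2 values of CTR1 (1.87 to 2.31) and LSO1 (−1.82 to −1.30) in WT and of CTR3 in rox2 (−3.79 to −2.94) kept their calls under every alternative run. For LSO1 this does not lift the limit that the comparison behind its choice is not recorded. For the others below, the cause was not tested. CTR3 in CoCl2 rests on few counts, which limits what its values can show.

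Total counts moved the median of all genes with CoCl2 by log2 0.142 in rox1/rox2, 0.236 in rox2, 0.174 in rox1 and 0.243 in WT. With total counts, LSO1 in rox2 was −0.51 (adjusted p = 0.143), ISU1 in rox1 against WT in CoCl2 −0.11, the CTR3 response of rox1/rox2 minus WT −0.0298, and 5 list genes fell with CoCl2 in WT. ISU1 in rox1 against WT in CoCl2 was −0.0043 with RLE size factors, −0.0031 with DESeq2 and −0.082 with length correction. The length correction also gave ISU1 in rox2 0.53 (adjusted p = 0.175), LSO1 in rox2 against WT in CoCl2 −0.15, and the ISU1 response of rox2 minus WT −0.081.

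DESeq2 called CTR3 with CoCl2 in rox1 (−2.40), CTR1 (1.40) and CTR3 (1.94) in rox2 against WT, the CTR1 response of rox2 minus WT (−1.86), and the LSO1 response of rox1 minus WT (1.35). The LSO1 response of rox1/rox2 minus WT, of which no test is read, was 1.27 with DESeq2. Fits of only the groups compared lost ISU1 (0.87) and LSO1 (−0.72) with CoCl2 in rox2 and CTR1 in rox1 against WT in CoCl2 (−1.94, adjusted p = 0.0502). They gained CTR1 (0.84), ISU1 (−0.33) and LSO1 (0.46) in rox1/rox2 against WT, where 2796 genes were then called and 6 in the fit of all libraries, and the CTR1 response of rox1/rox2 minus WT (−1.66). Without both libraries with the most reads outside genes, chosen after seeing the data, ISU1 and LSO1 with CoCl2 in rox2 were 0.41 and −0.51, both uncalled, CTR3 was −3.37 (adjusted p = 0.0208), and the ISU1 response of rox2 minus WT was −0.0297.

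With the replicate number as a block in the oxygen experiment, 741 genes were called, against 361 without it, and 4 list genes rose and 23 fell. In the deletion experiment correlations were 0.658, 0.732 and 0.254 for rox1/rox2, rox2 and rox1 against WT in CoCl2, with 2 libraries per group, and between −0.305 and 0.331 in the other comparisons, so the numbers were not taken to pair the samples. In the deletion experiment the replicate block also gave a called LSO1 response of rox1 minus WT of 1.39 (edgeR adjusted p = 0.0342) and a CTR3 response of rox1/rox2 minus WT of −0.11. With crossed numbers in rox1, chosen after seeing the data, 402 genes were called with CoCl2, against 447 with no block.

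Leaving out 1 library at a time, CoCl2 values ranged over −2.95 to −1.40 for CTR3 and −0.63 to 0.28 for LSO1 in rox1, over −0.16 to 0.56 for CTR1, 0.62 to 1.05 for ISU1 and −0.91 to −0.57 for LSO1 in rox2, and over 1.38 to 1.68 for ISU1 in rox1/rox2. Against untreated WT they ranged over −0.41 to 1.14 for CTR3 and −1.17 to −0.26 for LSO1 in rox1. In CoCl2 against WT they ranged over −2.34 to −1.63 for CTR1 and −0.37 to 0.38 for ISU1 in rox1, −0.35 to 0.30 for ISU1 in rox2, and −0.95 to 0.22 for CTR3 in rox1/rox2. LSO1 in rox1/rox2, of which no test is read, ranged over 1.42 to 2.01 there. Differences of response from WT ranged over −3.18 to −2.20 for CTR1, −0.23 to 0.53 for ISU1 and 1.00 to 1.91 for LSO1 in rox1, and −0.54 to 0.66 for CTR3 in rox1/rox2. List genes that rose and fell numbered 15 to 24 and 6 to 10 with CoCl2 in WT, and 1 to 2 and 6 to 15 in hypoxia.

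Counts of all genes called moved widely. Over the alternatives they lay between 40 and 679 with CoCl2 in rox1/rox2 (321 in the reported fit), 1493 and 2905 in rox2 (2667), 52 and 930 in rox1 (447) and 1470 and 3040 in WT (2607). In untreated cells against WT they lay between 3 and 2796 in rox1/rox2 (6), 1 and 65 in rox2 (4) and 2 and 291 in rox1 (3), and in CoCl2 between 4 and 475 (278), 0 and 582 (198) and 94 and 1347 (974). For responses minus WT they lay between 4 and 229 (22), 0 and 213 (5) and 19 and 639 (261).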
